A study of Mus musculus with 4 samples.

Results

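The adrenomedullin, vasopressin and endothelin systems are peptide hormones and G protein-coupled receptors that set the tone of blood vessels and also act on the stroma of bone and marrow. The 10 genes described here were chosen by symbol, with the FPKM differences between the genotypes in these libraries already known. They are the peptide genes Adm and Edn1, the receptor genes Calcrl, Avpr1a, Ednra, Ednrb and Agtr1a, and the receptor partner genes Ramp1, Ramp2 and Ramp3. Each matched 1 of the 24487 rows of the deposited table. Because measured values led to their choice, their levels are given as a description and carry no test.

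RNA was sequenced from cultured mouse mesenchymal stem/progenitor cells (MSPCs), the adherent stromal cells that grow out of bone marrow. There were 2 libraries of Asxl1-/- cells and 2 of wild-type (WT) cells, all on the C57BL/6 background and at passages 5 to 10. Asxl1 encodes a chromatin regulator that works with the histone deubiquitinase BAP1, and the series is about what its loss does to renewal and fate of marrow stroma. The labels give no age, and they do not say how the allele was made. Nor do they say whether the libraries of a genotype came from separate animals. The spread between libraries of a genotype may therefore not be a spread between animals.

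Adrenomedullin, the product of Adm, is a secreted peptide that widens vessels, is induced by low oxygen and stimulates growth of osteoblasts. Its receptor is the product of Calcrl joined to a small membrane partner. With RAMP2 or RAMP3 the pair binds adrenomedullin, and with RAMP1 it binds calcitonin gene-related peptide; both forms raise cyclic AMP. The vasopressin receptor V1a (Avpr1a), the endothelin receptor A (Ednra) and the angiotensin II receptor (Agtr1a) instead act mainly through Gq, phospholipase C and calcium.

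Levels are FPKM, fragments scaled to transcript length and library size, so they can be compared between genes. Asxl1 stood at 0.273 and 0.312 FPKM in the Asxl1-/- libraries, against 14.6 and 11.2 FPKM in the WT libraries. The read number per library is unknown. Relative depths, from steps at low FPKM, lay between 0.955 and 1.03. The libraries were less alike in make-up: rows under 300 bp held 40.9% of the summed FPKM in WT replicate 2. That share was 24.9% in WT replicate 1, and 22.6% and 21.4% in Asxl1-/- replicates 1 and 2. Of 13 stromal markers, 10 to 12 per library reached 1 FPKM, with Col1a1 at 1298 FPKM or more in each library. Lepr, which marks much of the marrow stroma in the animal, reached 0.04 FPKM at most. Of 12 endothelial markers, 10 stayed under 1 FPKM in all 4 libraries, and Tie1, Emcn and Cldn5 were listed at 0 in all of them. The 12 macrophage markers summed to 80.8 and 343 FPKM in Asxl1-/- replicates 1 and 2, against 7.41 and 504 FPKM in WT replicates 1 and 2. The genotypes overlapped, and 1 library of each genotype held most of its sum. Replicate numbers do not match libraries across genotypes. Of the 80.8 FPKM in Asxl1-/- replicate 1, Fcer1g made up 72.2.

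Of the 10 genes, 4 stood higher in both Asxl1-/- libraries than in both WT libraries, 2 stood lower and 4 overlapped. The higher ones were Adm, Calcrl, Avpr1a and Edn1, and the lower ones Ramp3 and Agtr1a. Over the 17382 rows above 0 in at least 1 library, 13.1% stood higher in this sense and 23.4% lower; since the genotype difference was known when the genes were chosen, nothing is read from the comparison. The median difference of the 10 genes, Asxl1-/- minus WT on the log2(FPKM + 1) scale, was 0.36, beside -0.07 over the 11485 genes that averaged 1 FPKM or more. This scale adds 1 FPKM to each value and so understates differences of low genes. Of the 10 genes, 7 reached that mean. The other 3, Ramp1, Ednrb and Agtr1a, are described at their low levels.

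The promoters of the 4 genes that stood higher are shown because these are the members whose levels followed the genotype upward. Each run holds 250 bases before and 50 bases after the RefSeq start on build GRCm38.p6, read along the gene. They lie at chr7:110627407-110627706 (plus strand, Adm), chr2:84425217-84425516 (minus strand, Calcrl), chr10:122448249-122448548 (plus strand, Avpr1a) and chr13:42301226-42301525 (plus strand, Edn1). Capitals mark 3 motifs found on either strand: GGGCGG (GC box), TGACG (the short form of the cyclic AMP response element) and ACGTG (core of the hypoxia factor site). Letters in capitals may be the reverse complement of the motif.
Adm: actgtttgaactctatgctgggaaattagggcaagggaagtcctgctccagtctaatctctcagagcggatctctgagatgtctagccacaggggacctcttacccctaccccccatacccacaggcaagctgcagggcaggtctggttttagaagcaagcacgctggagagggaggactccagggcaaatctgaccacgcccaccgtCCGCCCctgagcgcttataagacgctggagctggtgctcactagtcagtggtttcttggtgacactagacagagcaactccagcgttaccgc
Calcrl: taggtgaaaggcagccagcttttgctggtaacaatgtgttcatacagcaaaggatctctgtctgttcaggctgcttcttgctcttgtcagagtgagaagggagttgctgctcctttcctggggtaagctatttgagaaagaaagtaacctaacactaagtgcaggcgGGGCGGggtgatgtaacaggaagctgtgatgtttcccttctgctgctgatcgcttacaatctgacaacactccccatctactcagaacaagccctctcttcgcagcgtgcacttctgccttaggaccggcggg
Avpr1a: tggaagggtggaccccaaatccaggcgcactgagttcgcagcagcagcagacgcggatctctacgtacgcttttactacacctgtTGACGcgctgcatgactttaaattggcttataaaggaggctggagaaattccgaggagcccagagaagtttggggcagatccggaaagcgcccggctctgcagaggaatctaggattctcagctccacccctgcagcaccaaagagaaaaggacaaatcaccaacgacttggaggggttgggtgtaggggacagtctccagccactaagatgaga
Edn1: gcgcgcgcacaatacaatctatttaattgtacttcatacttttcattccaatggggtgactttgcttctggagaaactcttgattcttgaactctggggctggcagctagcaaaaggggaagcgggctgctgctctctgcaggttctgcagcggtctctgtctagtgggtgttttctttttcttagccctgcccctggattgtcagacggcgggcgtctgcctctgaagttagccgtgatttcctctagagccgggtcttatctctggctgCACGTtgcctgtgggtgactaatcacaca

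The GC box lay 42 bases before the start in Adm, as its reverse complement, and 83 bases before it in Calcrl. The short cyclic AMP element lay 165 bases before the start in Avpr1a, and the hypoxia core fell in the transcribed part of Edn1, at base 22. No matches overlapped each other. RefSeq promoters were matched for 8 of the 10 genes. GGGCGG was found in 3 of the 8 (Adm, Ramp3 and Calcrl), beside 35.7% of 32851 mouse promoters of this length. TGACG was found in 3 (Ramp1, Avpr1a and Ednrb), beside 20.8%. ACGTG was found in 1, beside 19.6%, and the AP-1 site TGACTCA in 0, beside 5.20%. The Adm window held neither ACGTG nor TGACG, which says only that these letters are not in these 300 bases.

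Adm was the most abundant of the 10 genes in every library. It stood at 147 and 94.7 FPKM in the Asxl1-/- libraries, against 12.8 and 27.5 FPKM in the WT libraries. The groups did not overlap: the lower Asxl1-/- library was 3.44 times the higher WT library. Means were 121 ± 37.0 FPKM in Asxl1-/- cells and 20.2 ± 10.4 FPKM in WT cells (SD, n = 2 each), and the log2 difference was 2.58. It lay between 2.06 and 3.10 when any 1 library was left out. The gene lies on mm10 chromosome 7, 110627669 to 110629819, plus strand. In the authors' deposited table Adm was the 1 gene of the 10 marked significant, at a q-value of 0.00836 and a log2 ratio of 2.68; that table marked 0.543% of its 12881 tested genes as higher and 0.396% as lower in Asxl1-/- cells.

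Calcrl, the receptor gene of this peptide, stood at 5.43 and 3.62 FPKM in the Asxl1-/- libraries, against 1.22 and 0.978 FPKM in the WT libraries. Each Asxl1-/- library held more than both WT libraries, and the lower one was 2.96 times the higher WT library. The log2 difference was 1.38, with 1.14 to 1.62 when 1 library was left out, and the spread within each genotype was small beside it (ratios of 1.499 within Asxl1-/- and 1.25 within WT). The authors' deposited table gives Calcrl a q-value of 0.151 and a log2 ratio of 2.16, and does not mark it. The gene lies on mm10 chromosome 2, 84330627 to 84425266, minus strand. Calcrl is best known from endothelial cells. The endothelial markers summed to 2.62 and 9.46 FPKM in the Asxl1-/- libraries and 7.23 and 3.16 FPKM in the WT libraries. Pecam1 reached 0.06 FPKM at most, and Cdh5 stood at 7.11 FPKM in Asxl1-/- replicate 2 and at 0.01 FPKM or less in the other libraries. Egfl7 went the other way from Calcrl, at 1.95 and 1.16 FPKM in the Asxl1-/- libraries, against 6.21 and 2.71 FPKM in the WT libraries. The part of endothelial cells in the Calcrl level was not tested.

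**Figure D1:**
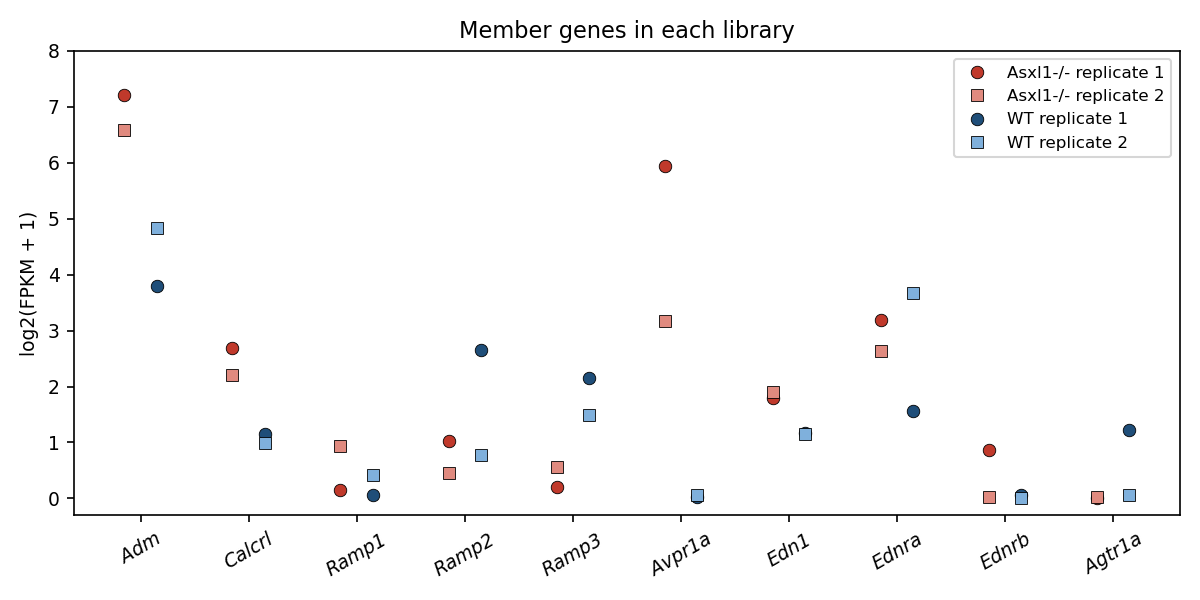
Level of each of the 10 genes as log2(FPKM + 1) on the vertical axis, with 1 point per library: Asxl1-/- libraries in red to the left of WT libraries in blue, circles for replicates 1 and squares for replicates 2. Adm, Calcrl, Avpr1a and Edn1 have both red points above both blue points, whereas for Ednra the WT points lie on either side of the Asxl1-/- points.

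The partner genes went the other way or had no common direction. Ramp3 stood at 0.149 and 0.480 FPKM in the Asxl1-/- libraries, against 3.44 and 1.83 FPKM in the WT libraries. The groups did not overlap, and the lower WT library was 3.80 times the higher Asxl1-/- library. After correction for relative depth, Asxl1-/- replicates 2 and 1 stood as 3.001 to 1, a near whole-number ratio that a few fragments can give. Ramp3 averaged 1 FPKM or more only through its WT levels (means of 0.314 FPKM in Asxl1-/- and 2.64 FPKM in WT cells). The log2 difference was -1.44, with -1.77 to -1.12 when 1 library was left out. The authors' deposited table gives Ramp3 a q-value of 0.483 and a log2 ratio of -2.94. Ramp3 lies on mm10 chromosome 11, 6658533 to 6677475, plus strand.

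Ramp2 stood at 1.03 and 0.372 FPKM in the Asxl1-/- libraries, against 5.27 and 0.723 FPKM in the WT libraries. Here WT replicate 1 alone stood apart, and WT replicate 2 lay between the Asxl1-/- libraries. The log2 difference of -0.98 shrank to -0.04 without WT replicate 1. Ramp2 lies on mm10 chromosome 11, 101246334 to 101248250, plus strand. Of the 50-base stretches in its GENCODE transcripts, 30.7% occur in transcripts of Vps25. The GENCODE gene runs on to 101259546, past the end of the deposited row, and no other GENCODE gene overlaps that row. Whether the shared stretches affect the deposited level was not tested.

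Ramp1 was the lowest of the 3 partner genes in Asxl1-/- replicate 1 and both WT libraries. It stood at 0.111 and 0.920 FPKM in the Asxl1-/- libraries, against 0.0489 and 0.331 FPKM in the WT libraries. In both genotypes replicate 2 was higher, by 8.31 times within Asxl1-/- and 6.77 times within WT, and these were also the libraries with the larger macrophage marker sums (343 and 504 FPKM, against 80.8 and 7.41 FPKM). Among the macrophage markers Lyz2 stood at 2.36 and 293 FPKM in Asxl1-/- replicates 1 and 2 and at 2.85 and 400 FPKM in WT replicates 1 and 2. Their part in the Ramp1 level was not tested. Ramp1 lies on mm10 chromosome 1, 91179822 to 91225196, plus strand.

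The balance between receptor and partners did not overlap between the genotypes. Calcrl amounted to 4.19 and 2.04 times the summed FPKM of Ramp1, Ramp2 and Ramp3 in the Asxl1-/- libraries, against 0.139 and 0.340 times in the WT libraries. The partner sum was 1.29 and 1.77 FPKM in Asxl1-/- cells and 8.76 and 2.88 FPKM in WT cells. Which partner led was not the same in all libraries. Ramp2 gave 80.0% of the sum in Asxl1-/- replicate 1 and 60.2% in WT replicate 1. Ramp1 gave 51.9% in Asxl1-/- replicate 2, and Ramp3 gave 63.4% in WT replicate 2. This ratio is taken within a library, so scaling between libraries leaves it as it is. It was computed after the values were seen, is a description and rests on low partner levels. After correction for relative depth, Ramp2 in Asxl1-/- replicate 2, WT replicate 2 and Asxl1-/- replicate 1 stood as 1 to 2.003 to 2.998. Steps so near whole numbers can come from a few fragments, so the multiples and shares above are uncertain.

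**Figure D2:**
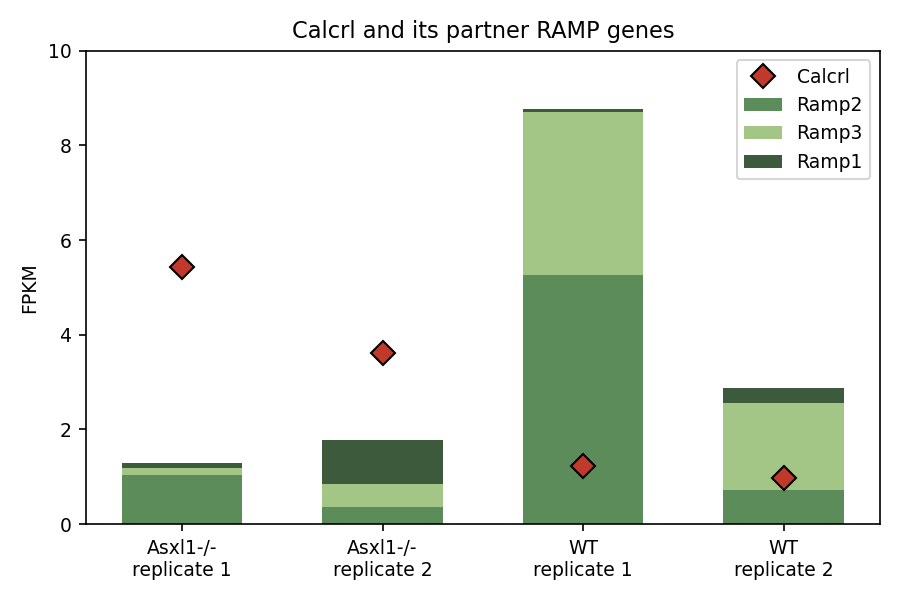
Stacked bars give the FPKM of Ramp2, Ramp3 and Ramp1 in each library and red diamonds the FPKM of Calcrl, with Asxl1-/- libraries left of WT libraries. Calcrl lies above the stack in both Asxl1-/- libraries (5.43 against 1.29 and 3.62 against 1.77) and below it in both WT libraries (1.22 against 8.76 and 0.978 against 2.88).

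Avpr1a had the widest gap of the 10 genes. It stood at 60.4 and 8.01 FPKM in the Asxl1-/- libraries, against 0.0155 and 0.0472 FPKM in the WT libraries. The lower Asxl1-/- library was 170 times the higher WT library, yet the Asxl1-/- libraries differed from each other by 7.53 times. After correction for relative depth the WT values stood as 3.002 to 1, the kind of whole-number ratio that a few fragments give. The log2 difference was 4.51, with 3.13 to 5.90 when 1 library was left out, and 7.41 at a pseudocount of 0.1 in place of 1. The authors' deposited table gives a q-value of 0.763 beside a log2 ratio of 10.2, and does not mark the gene. Avpr1a lies on mm10 chromosome 10, 122448499 to 122453453, plus strand.

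Rgs5, a pericyte marker, was also highest in Asxl1-/- replicate 1, at 36.3 FPKM, and stood at 0.58 FPKM in Asxl1-/- replicate 2, against 0.22 and 1.07 FPKM in the WT libraries. The 12 smooth muscle and pericyte markers summed to 1247 and 1928 FPKM in the Asxl1-/- libraries and 705 and 2087 FPKM in the WT libraries. Most of each sum came from the contractile genes Acta2 and Tagln, which cultured stromal cells also express. Acta2 stood at 884 and 1545 FPKM in the Asxl1-/- libraries, against 393 and 1273 FPKM in the WT libraries. Cnn1 reached 93.2 FPKM, Notch3 17.1 FPKM, Cspg4 14.1 FPKM and Mcam 14.0 FPKM, each in WT replicate 2. Myh11, Kcnj8 and Abcc9 stayed under 1 FPKM in all 4 libraries. Their part in the Avpr1a level was not tested. In bulk libraries a change in the share of cells that express a gene and a change in RNA per cell cannot be told apart.

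The ligands of Avpr1a and its relatives were near or at 0. Avp and Oxt, which encode vasopressin and oxytocin, and the receptor gene Avpr1b were listed at 0 in all 4 libraries. The kidney receptor gene Avpr2 reached 0.041 FPKM and the oxytocin receptor gene Oxtr 0.052 FPKM at most. Lnpep, a membrane peptidase that cleaves both hormones, stood at 9.22 and 13.1 FPKM in the Asxl1-/- libraries, against 13.3 and 17.9 FPKM in the WT libraries (limma adjusted p = 0.724). It was the 1 of these 6 that was abundant enough to be tested, and it did not pass.

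Edn1, the gene of endothelin 1, a peptide that constricts vessels and stimulates osteoblasts, had the closest replicates of the 10. It stood at 2.48 and 2.75 FPKM in the Asxl1-/- libraries, against 1.25 and 1.22 FPKM in the WT libraries. The Asxl1-/- libraries were both higher, the lower one by 1.98 times, and the ratios within a genotype were 1.11 and 1.03. The log2 difference of 0.69 lay between 0.64 and 0.75 when 1 library was left out. The authors' deposited table gives Edn1 a q-value of 0.999 and a log2 ratio of 1.20. The gene lies on mm10 chromosome 13, 42301270 to 42307989, plus strand.

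The endothelin receptors did not share this pattern. Ednra stood at 8.09 and 5.22 FPKM in the Asxl1-/- libraries, against 1.95 and 11.8 FPKM in the WT libraries. The WT libraries were the lowest and the highest of the 4, a spread of 6.04 times, so the log2 difference of 0.29 was smaller than the spread between replicates. It became -0.76 without WT replicate 1 and 1.35 without WT replicate 2. Ednra lies on mm10 chromosome 8, 77663029 to 77724452, minus strand.

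Ednrb, the receptor that precursors of pigment cells and enteric neurons need, stood at 0.821 and 0.0154 FPKM in the Asxl1-/- libraries, against 0.0443 FPKM in the first WT library and a listed 0 in the second. Only Asxl1-/- replicate 1 stood apart. The values of WT replicate 1 and Asxl1-/- replicate 2 were in the ratio 3.002 to 1 after correction for depth. Ednrb lies on mm10 chromosome 14, 103814615 to 103844476, minus strand. Of 8 Schwann and melanocyte markers, 6 stayed under 1 FPKM in all libraries, and Sox10 reached 0.02 FPKM at most. Mitf stood at 5.65 and 3.41 FPKM in the Asxl1-/- libraries, against 7.29 and 3.89 FPKM in the WT libraries. Mbp reached 1.51 FPKM, in WT replicate 1. The other ligand genes, Edn2 and Edn3, were listed at 0 in all 4 libraries.

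Agtr1a was listed at 0 in Asxl1-/- replicate 1 and stood at 0.0193 FPKM in Asxl1-/- replicate 2, against 1.32 and 0.0374 FPKM in the WT libraries. The genotypes did not overlap, Asxl1-/- being lower, but WT replicate 2 was only 1.94 times the higher Asxl1-/- library, and their depth-corrected ratio was 2.00. The log2 difference was -0.62, and -0.04 without WT replicate 1, so it rests on that library. The close relative Agtr1b, listed at 0 in both Asxl1-/- libraries, had 0.0197 and 0.1002 FPKM in the 2 WT libraries. Of the 50-base stretches in Agtr1a transcripts 1.27% occur in transcripts of other genes, most of them in Agtr1b. Agtr1a lies on mm10 chromosome 13, 30336356 to 30382867, plus strand.

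**Figure D3:**
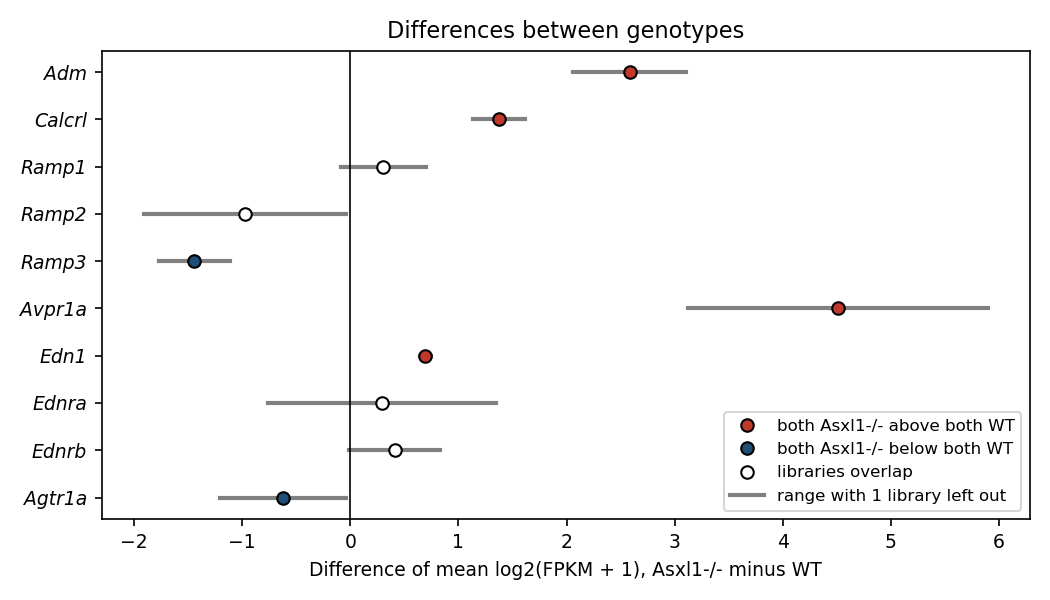
Difference of the mean log2(FPKM + 1), Asxl1-/- minus WT, for each of the 10 genes, with a grey line from the lowest to the highest value when 1 library is left out. Adm, Calcrl, Avpr1a and Edn1 stay above 0 throughout and Ramp3 below 0, while the lines of Ramp2 and Agtr1a end at -0.04 and those of Ramp1, Ednra and Ednrb cross 0.

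Genes whose profile over the 4 libraries lay nearest to a member were found among 10847 named genes, by the Euclidean distance between log2(FPKM + 1) values from which each gene's own mean was taken. For Adm they were Samd5 (distance 0.27), Lrrc32 (0.42) and Col28a1 (0.46). Lrrc32, which encodes GARP, a surface anchor of latent TGF-beta, stood at 129 and 81.9 FPKM in the Asxl1-/- libraries, against 10.9 and 16.6 FPKM in the WT libraries. For Calcrl they were Rab3il1 (0.14), Medag (0.24) and Pde9a (0.27), and Pde9a, a phosphodiesterase that breaks down cyclic GMP, stood at 4.17 and 3.52 FPKM in the Asxl1-/- libraries, against 1.03 and 0.544 FPKM in the WT libraries.

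For Avpr1a the nearest genes were the vessel ligand gene Angpt2 (0.59), the globin gene Cygb (1.10) and the complement gene C2 (1.35). C2 stood at 23.5 and 3.80 FPKM in the Asxl1-/- libraries, against 0.110 and 0.254 FPKM in the WT libraries. The 3 genes nearest to Ramp3 were Dnph1 (0.10), Sgol1 (0.11), which protects centromere cohesion, and Troap (0.14). Troap, a spindle protein gene, stood at 2.24 and 2.93 FPKM in the Asxl1-/- libraries, against 10.0 and 6.26 FPKM in the WT libraries. Nearest to Ramp2 were the histone chaperone gene Nasp (0.19), Magoh (0.21) and Nfkbia (0.26), all highest in WT replicate 1, and nearest to Ednra were Pisd-ps1 (0.13), Polk (0.15) and Fam214a (0.15). With 4 libraries many genes share a profile, so nearness is a description.

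**Figure D4:**
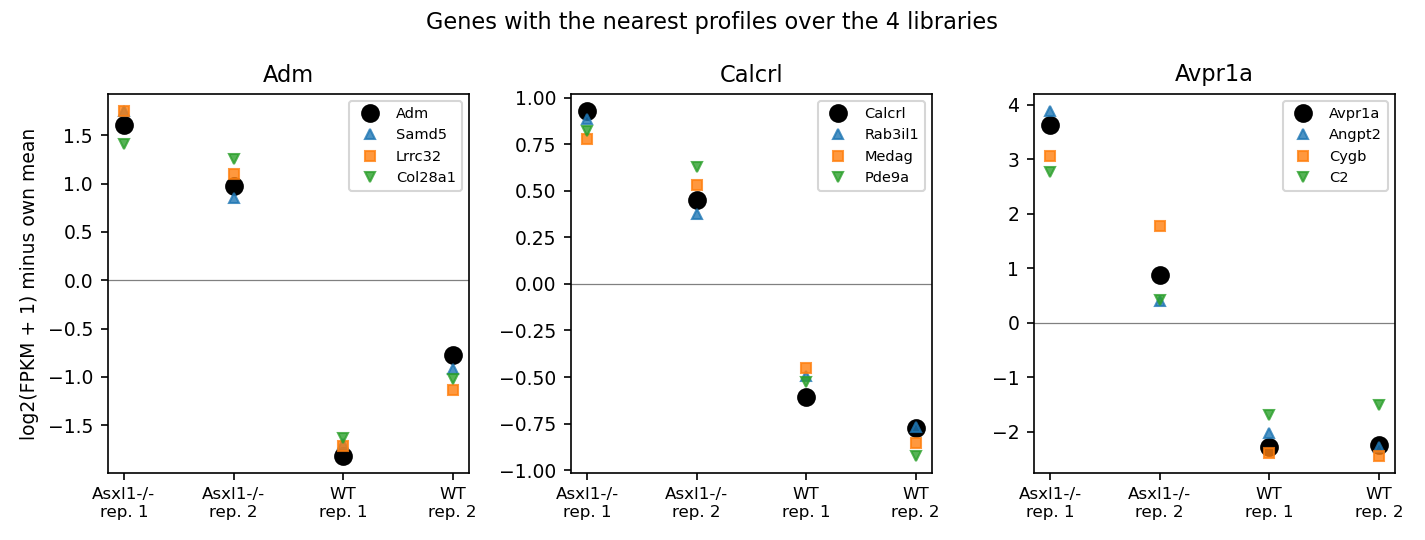
Values of log2(FPKM + 1) minus each gene's own mean over the 4 libraries, for Adm, Calcrl and Avpr1a (black circles) and the 3 genes nearest to each, with Asxl1-/- libraries left of WT libraries. In each panel all genes lie above 0 in both Asxl1-/- libraries and below 0 in both WT libraries, and for Avpr1a the first Asxl1-/- library lies above the second.

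The other genes of these pathways, 98 in 8 lists, were tested with limma in 1 fit over all 11485 genes that averaged 1 FPKM or more, in which 57 of them took part. At an adjusted p under 0.05, 0% of all genes in that fit rose and 0.0261% fell, and 0 of the 57 passed in either direction. An unadjusted p under 0.05 was reached by 4 of the 57 with a higher and 7 with a lower level in Asxl1-/- cells, beside 2.51% and 5.41% of all genes tested. Over all genes that split was 288 higher and 621 lower, against 404 and 530 under median ratio scaling and 383 and 513 under quantile normalization. Without overlap between the genotypes, Asxl1-/- levels were above WT levels in 10 of the 57 and below them in 16, beside 15.6% and 25.2% of all genes tested. The median log2 difference of the 57 was -0.08, beside -0.07 for all genes. The lists were chosen with earlier results of these data known, so nothing is read from these comparisons with all genes. The authors' deposited table marks 2 of the 98, Mme and Bdkrb2, both lower in Asxl1-/- cells, beside 0.396% lower and 0.543% higher of its 12881 tested genes. How many of the 98 were tested there was not counted, so nothing is read from the comparison.

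Peptide processing genes were strongly expressed and did not pass the test. Pam, the enzyme that amidates adrenomedullin and is needed for its activity, stood at 55.2 and 127 FPKM in the Asxl1-/- libraries, against 78.1 and 51.1 FPKM in the WT libraries. Cpe, a peptidase of hormone precursors, stood at 293 and 252 FPKM in the Asxl1-/- libraries, against 405 and 214 FPKM in the WT libraries. In both cases the groups overlapped. Crcp, a component of the receptor for calcitonin gene-related peptide, was higher in both Asxl1-/- libraries at 19.7 and 17.3 FPKM, against 14.8 and 13.2 FPKM in the WT libraries (limma adjusted p = 0.708). The atypical receptor gene Ackr3, whose product takes up adrenomedullin, varied within each genotype, with 1.12 and 26.0 FPKM in the Asxl1-/- libraries, against 17.1 and 0.276 FPKM in the WT libraries. The related ligand gene Adm2 was low, with 0.290 and 0.0447 FPKM in the Asxl1-/- libraries, against 1.54 and 0.347 FPKM in the WT libraries, and is named here after its values were seen. Calca, the gene of calcitonin and a form of calcitonin gene-related peptide, had 0 FPKM in both Asxl1-/- libraries, against 0.0964 and 0 FPKM in the WT libraries. Calcb, Calcr and Iapp, which encode the other form of that peptide, the calcitonin receptor and amylin, were listed at 0 in all 4 libraries.

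Among the enzymes of the endothelin system, Mme had the smallest p of its list. Mme encodes neprilysin, which degrades endothelins and natriuretic peptides, and stood at 2.42 and 0.489 FPKM in the Asxl1-/- libraries, against 123 and 26.4 FPKM in the WT libraries. The genotypes did not overlap, with a log2 difference of -4.69 (standard error 0.85, limma adjusted p = 0.489). The converting enzyme genes Ece1 and Ece2, whose products make the active peptide, overlapped between the genotypes. Ece1 stood at 23.0 and 4.08 FPKM in the Asxl1-/- libraries, against 20.2 and 15.4 FPKM in the WT libraries. Furin, the protease that makes the first cut in the precursor, stood at 18.5 and 22.4 FPKM in the Asxl1-/- libraries, against 16.1 and 17.7 FPKM in the WT libraries.

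None of the 6 tested genes of the renin-angiotensin system passed, and none had an unadjusted p under 0.05 in limma. The angiotensin precursor gene Agt, named after its values were seen, was expressed and overlapped between the genotypes. It stood at 106 and 16.6 FPKM in the Asxl1-/- libraries, against 33.8 and 20.0 FPKM in the WT libraries. Anpep, an aminopeptidase that trims angiotensin peptides, stood at 0.230 and 5.20 FPKM in the Asxl1-/- libraries, against 28.8 and 6.22 FPKM in the WT libraries. Enpep, which makes angiotensin III, was high in WT replicate 1 alone, at 11.3 FPKM. Agtrap, whose product promotes uptake of the receptor encoded by Agtr1a, was higher in both Asxl1-/- libraries at 11.7 and 7.17 FPKM, against 5.61 and 5.95 FPKM in the WT libraries. Rnpep stood at 42.0 and 22.7 FPKM in the Asxl1-/- libraries, against 7.18 and 23.1 FPKM in the WT libraries.

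Downstream of the receptors, the G protein gene Gnas, through which Calcrl acts, was nearly level, at 556 and 589 FPKM in the Asxl1-/- libraries, against 636 and 603 FPKM in the WT libraries (log2 difference -0.11, standard error 0.25). Gnaq, through which Avpr1a, Ednra and Agtr1a act, stood at 22.6 and 34.6 FPKM in the Asxl1-/- libraries, against 12.9 and 17.5 FPKM in the WT libraries (log2 difference 0.86, standard error 0.32, limma adjusted p = 0.625). The Asxl1-/- libraries were higher in each case for Gnaq and lower for Gnas. Plcb4, a phospholipase C that Gq activates, was lower at 4.32 and 2.86 FPKM in the Asxl1-/- libraries, against 10.6 and 11.2 FPKM in the WT libraries (log2 difference -1.40, standard error 0.27, limma adjusted p = 0.503). Their more abundant relatives Gna11 and Plcb3, named after their values were seen, overlapped between the genotypes. Gna11 stood at 36.4 and 53.8 FPKM in the Asxl1-/- libraries, against 19.2 and 37.0 FPKM in the WT libraries. Plcb3 stood at 25.7 and 17.3 FPKM in the Asxl1-/- libraries, against 23.2 and 26.7 FPKM in the WT libraries.

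No gene of an adenylyl cyclase, the enzymes that make cyclic AMP, passed the test. Adcy7 stood at 4.43 and 8.72 FPKM in the Asxl1-/- libraries, against 1.36 and 2.76 FPKM in the WT libraries. Adcy2 was listed at 0 in Asxl1-/- replicate 1 and stood at 0.139 FPKM in Asxl1-/- replicate 2, against 6.16 and 2.67 FPKM in the WT libraries. Their limma adjusted p were 0.605 and 0.503, and Adcy2 was abundant enough to be tested only through its WT levels. Adcy3, named after its values were seen, stood at 4.54 and 1.71 FPKM in the Asxl1-/- libraries, against 6.03 and 9.82 FPKM in the WT libraries (log2 difference -1.17, limma adjusted p = 0.632). The most abundant cyclase gene of the list, Adcy6, overlapped between the genotypes and was also named after its values were seen. It stood at 24.4 and 18.3 FPKM in the Asxl1-/- libraries, against 18.6 and 20.9 FPKM in the WT libraries (log2 difference 0.09, limma adjusted p = 0.938). The regulatory subunit gene of protein kinase A Prkar2b was lower, at 18.9 and 12.7 FPKM in the Asxl1-/- libraries, against 28.6 and 34.3 FPKM in the WT libraries. Its relative Prkar1a, named after its values were seen, stood at 180 and 249.1 FPKM in the Asxl1-/- libraries, against 107 and 132 FPKM in the WT libraries.

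Receptor kinases and arrestins switch such receptors off. Grk5 was higher in both Asxl1-/- libraries, at 12.1 and 10.9 FPKM, against 6.97 and 5.29 FPKM in the WT libraries (limma adjusted p = 0.566). Arrb2 was lower in both, at 1.96 and 2.33 FPKM, against 6.60 and 10.1 FPKM in the WT libraries (limma adjusted p = 0.503). The relatives Grk6 and Arrb1 differed less, with log2 differences of -0.28 and 0.27. Of 8 tested genes that cyclic AMP induces in many cells, Nr4a2 alone had an unadjusted p under 0.05 in limma and was lower, at 0.944 and 2.25 FPKM in the Asxl1-/- libraries, against 7.66 and 3.49 FPKM in the WT libraries (limma adjusted p = 0.618). Crem, a classic target of this route, had a log2 difference of 0.15, Per1 of -0.37 and Pde4b of -0.93, with Pde4b overlapping between the genotypes.

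**Figure D5:**
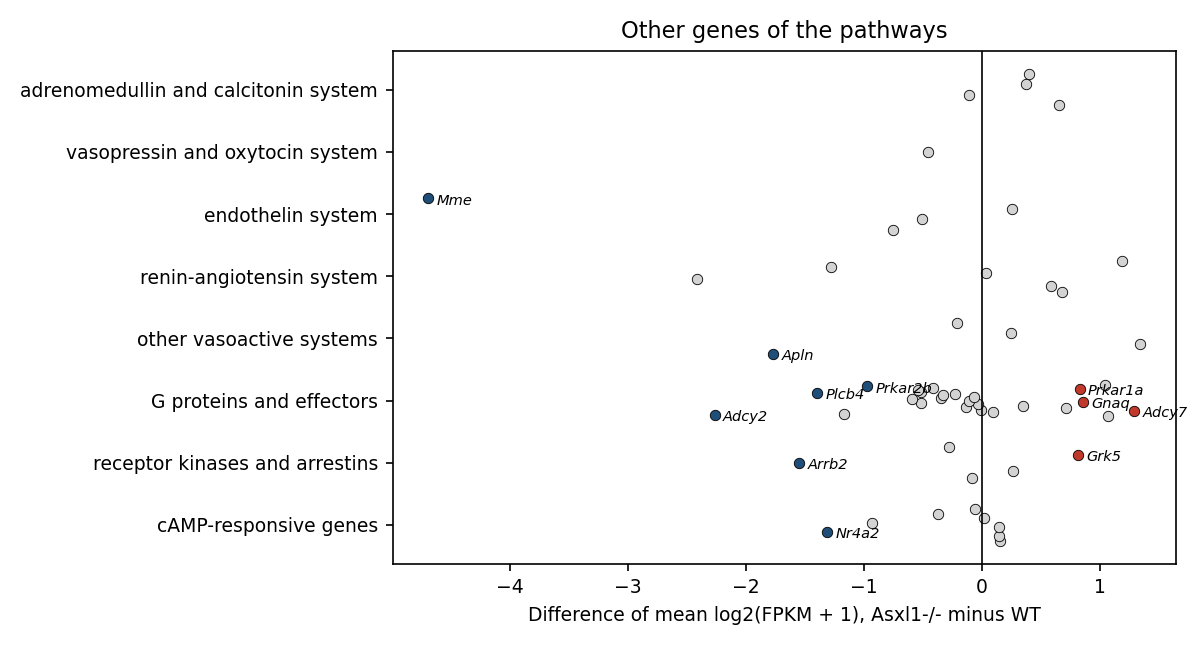
Each point is 1 of the 57 tested pathway genes, placed by its difference of mean log2(FPKM + 1), Asxl1-/- minus WT, in the row of its list. Named red (higher, 4 genes) and blue (lower, 7 genes) points had an unadjusted limma p under 0.05, and none passed at an adjusted p under 0.05.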

How the data were processed

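RNA libraries of cultured Asxl1-/- cells (2 libraries) and WT cells (2 libraries) were compared. The submitters' processing notes name mm10, Cufflinks 2.2.1, Cuffdiff and TopHat2 2.0.3; the annotation used and any strand setting are not stated there. The deposited table gives FPKM per library, as Cufflinks made them; 2 of its columns match no sample and were not used. The authors' deposited Cuffdiff table gives group FPKM, log2 fold changes, p-values and q-values for groups it calls WT2 and KO2. These were taken to be the WT and Asxl1-/- libraries used here, but the table does not say which libraries went into them, and every value quoted from it rests on that; its group FPKM were a median of 1.25 times (Asxl1-/-) and 1.16 times (WT) the mean of the libraries. Starts are given with 1 added to the file's value.

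Genes averaging 1 FPKM or more entered a limma fit (eBayes with trend; limma 3.58.1 in R 4.3.3) on log2(FPKM + 1), with Benjamini-Hochberg adjustment over all of them; the code was tested on simulated data. Depth is unknown, so no counting interval is given. Replicate numbers follow accession order and match no libraries across genotypes. In the GENCODE annotation of mm10 another gene overlaps 6 of the 10 (Adm, Ramp3, Avpr1a, Edn1, Ednra and Agtr1a), and without strand their reads cannot be told apart. All 10 members and, per pathway list, up to 4 tested genes with the smallest p are named, with Gnas, Gnaq and Pam. Members and lists were chosen with earlier results of these data known. Promoters are from RefSeq. Figures used Python (version 3.11.15) and matplotlib (version 3.10.9).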

Additional observations from a re-analysis of the deposited data

How the results depend on the processing

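Over all genes tested with limma, 0 rose and 3 fell (288 and 621 at an unadjusted p under 0.05; the authors' deposited table marks 70 and 51); without any 1 library the numbers ranged from 0 to 4 for higher and from 1 to 6 for lower genes, and with no filter on low values 1 fell. The 4 higher genes appeared without Asxl1-/- replicate 1; 1 gene fell without Asxl1-/- replicate 2, 6 fell without WT replicate 1 and 5 without WT replicate 2. The cause was not tested. None of the other pathway genes passed in any of the 11 alternatives. Among 80 recomputed differences of the 10 members (pseudocounts of 0.1 and 0.5, median ratio scaling, quantile normalization, each library left out), 65 moved by no more than the replicate SD, 12 moved further with the same sign and 3 changed sign: Ramp1 without Asxl1-/- replicate 2 (range -0.089 to 0.701 over the libraries left out), Ednra without WT replicate 1 (-0.762 to 1.351) and Ednrb without Asxl1-/- replicate 1 (-0.0091 to 0.833). Leaving out 1 of 2 libraries cannot move a difference by more than this SD. For those settings the count of 65 therefore says nothing about stability, and only a change of sign could show. Ramp2 is among the 65, although it went from -0.98 to -0.04 without WT replicate 1. Median ratio scaling left the numbers of members above (4) and below (2) as they were. Every member has 1 row, so summing rows changes nothing. With 2 libraries per genotype, leaving 1 out leaves a lone library that is taken to vary like the others.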

Other observations

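Other vasoactive peptide systems were measured in the same libraries, with 4 of 18 genes at a mean of at least 1 FPKM and 0 past the adjusted threshold in limma (1 with an unadjusted p under 0.05). Apln, the gene of the vessel peptide apelin, stood at 2.55 and 2.27 FPKM in the Asxl1-/- libraries, against 8.59 and 13.1 FPKM in the WT libraries (log2 difference -1.77, standard error 0.30, limma adjusted p = 0.480). Its receptor gene Aplnr reached 0.099 FPKM at most. Npr2, the receptor of C-type natriuretic peptide, overlapped between the genotypes, at 17.7 and 22.3 FPKM in the Asxl1-/- libraries, against 11.6 and 23.4 FPKM in the WT libraries. So did the clearance receptor gene Npr3, at 5.85 and 48.3 FPKM in the Asxl1-/- libraries, against 39.8 and 10.1 FPKM in the WT libraries. The kininogen gene Kng1 also overlapped, at 8.16 and 4.04 FPKM in the Asxl1-/- libraries, against 4.89 and 0.227 FPKM in the WT libraries.

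The bradykinin receptor gene Bdkrb2, named after its values were seen, was listed at 0 in both Asxl1-/- libraries against 0.835 and 1.06 FPKM in WT cells, under the mean needed for the test. Bdkrb1 was likewise listed at 0 in both Asxl1-/- libraries, against 0.171 and 0.104 FPKM in the WT libraries. Ace, whose product makes angiotensin II and degrades bradykinin, lay on the other side, at 1.72 and 1.25 FPKM in the Asxl1-/- libraries, against 0.120 and 0.363 FPKM in the WT libraries. These genes were picked after their values were seen, and none of them entered the limma fit. The authors' deposited Cuffdiff test marks Bdkrb2 as significant and does not mark Bdkrb1 or Ace.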
